A study of Homo sapiens with 4 samples.

Results

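The 9 genes described here encode 6 cytosolic ribosomal proteins, RPS19, RPS7, RPS20, RPS12, RPS25 and RPL24, and 3 nucleolar proteins, NCL, NPM1 and NOP58. They were chosen by gene symbol from the 858 genes of the authors' deposited table, which compares RNA of MiaPaca-2 cells carrying a short hairpin RNA against PRMT1 (shPRMT1, 2 samples) with cells carrying a non-targeting hairpin (shNTC, 2 samples). MiaPaca-2 is an established human pancreatic cancer line, and all 4 samples were grown in the same serum-containing medium. PRMT1 is the main enzyme that places asymmetric dimethylarginine on proteins. Only 1 hairpin against PRMT1 is named in the labels, and they do not say whether the samples of a group were separate cultures.

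Cytosolic ribosomes translate the messenger RNAs of the cell and consist of a small and a large subunit, each built from ribosomal RNA and a fixed set of ribosomal proteins. Ribosomal RNA is transcribed, modified and cut in the nucleolus, where the subunits are also assembled with the help of factors that leave before translation begins. Messenger RNAs of ribosomal proteins and of many translation factors begin with a run of pyrimidines, the terminal oligopyrimidine (TOP) tract, through which their translation follows growth signals such as mTOR. Nucleolin, the product of NCL, carries a glycine- and arginine-rich tail that is known to hold asymmetric dimethylarginine.

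The letters around the annotated transcription start are shown for the genes with a start sequence in the RefSeq table used here (GRCh38.p14), because the tract is the feature that ribosomal protein genes share in their sequence and that the choice of genes did not use. Each window runs from 15 bases before the start up to the 15th base of the transcript, 5′ to 3′ on the gene's strand. Capitals mark the longest run of C or T that begins with a C within 5 bases of the start and holds at least 5 bases.
RPS19, chr19:41860240-41860269, plus strand: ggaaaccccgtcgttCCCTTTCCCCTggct
RPS7, chr2:3575245-3575274, plus strand: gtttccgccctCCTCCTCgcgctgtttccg
RPS12, chr6:132814554-132814583, plus strand: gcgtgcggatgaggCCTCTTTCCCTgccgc
RPS25, chr11:119018329-119018358, minus strand: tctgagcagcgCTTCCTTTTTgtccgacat
RPL24, chr3:101686704-101686733, minus strand: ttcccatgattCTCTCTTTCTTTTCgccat
NPM1, chr5:171387834-171387863, plus strand: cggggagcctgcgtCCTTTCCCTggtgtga
NCL, chr2:231464470-231464499, minus strand: tcagtctttcgcctcagtctcgagctctcg

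Of the 7 genes with a sequence, 6 held such a tract, and NCL did not. The tracts of the ribosomal protein genes were 11 bases in RPS19, 7 in RPS7, 11 in RPS12, 10 in RPS25 and 14 in RPL24, and the tract of NPM1 was 9 bases. Except in RPS19, the tract shown began before the annotated start, and its length counts those bases too. RPS19 and NPM1 have another annotated start each, and the start shown is the one with the tract, or the longer tract. By the same rule a tract was present in 85.7% of the standard ribosomal proteins (54 of 63 genes with a sequence) and in 22.6% of the nucleolar and ribosome assembly genes (31 of 137), against 25.2% of all genes with a RefSeq start sequence. The tract was present in genes listed lower (RPS19, RPS7, RPS12) and in genes listed higher (RPS25, RPL24, NPM1). A tract is a match of letters and not a measured start of transcription in these cells.

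The authors' deposited table gives each gene 1 ratio of the groups with its log2, and p-values before and after adjustment. No values per sample were used here, so a ratio has no spread between samples beside it, and the depth of sequencing is unknown. The header does not say which group is the numerator. PRMT1 stands at 0.356 in the authors' deposited table, so ratios were read as shPRMT1 over shNTC, and under the other reading every direction below would turn round. All listed genes have an unadjusted p under 0.05, which is why the genes described here are in the table, so their p-values are given as a description. In the authors' deposited table the adjusted p of the 9 ran between 0.423 and 0.442, so none passed 0.05 after adjustment, as 0.0131% of all tested genes (1 gene) did. That gene was listed higher and is not PRMT1. In bulk RNA, fewer cells expressing a gene and less RNA of it per cell cannot be told apart. The table gives no levels, so whether the markers of the labelled cell type were expressed could not be read from it. Of 6 epithelial markers KRT19 (log2 −0.24, p = 0.0207) was in the authors' deposited table, and of 11 markers of fibroblasts, leukocytes and endothelium COL1A2 (log2 −0.51) and CDH5 (log2 0.81). The part of these markers in the values below was not tested.

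In the authors' deposited table, 4 of the 6 ribosomal proteins were listed lower in shPRMT1 and 2 higher, while all 3 nucleolar proteins were listed higher. Because the genes were chosen with these values known, the split is a description and carries no test. Lower values in shPRMT1 were also the more common kind across all 858 entries, at 58.4%, so 4 of 6 lower does not set the ribosomal proteins apart. The differences were small on both sides: the lowest ratio of the 9 in the authors' deposited table was 0.898 (RPS19) and the highest 1.20 (NCL). All 9 absolute log2 fold changes lay below 0.28, the median over the 858 genes of the authors' deposited table, and 480 listed genes (55.9%) had a larger one than any of the 9. That median is over genes that passed the p limit and not over all tested genes. The part of expression level in these sizes was not tested.

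**Figure D1:**
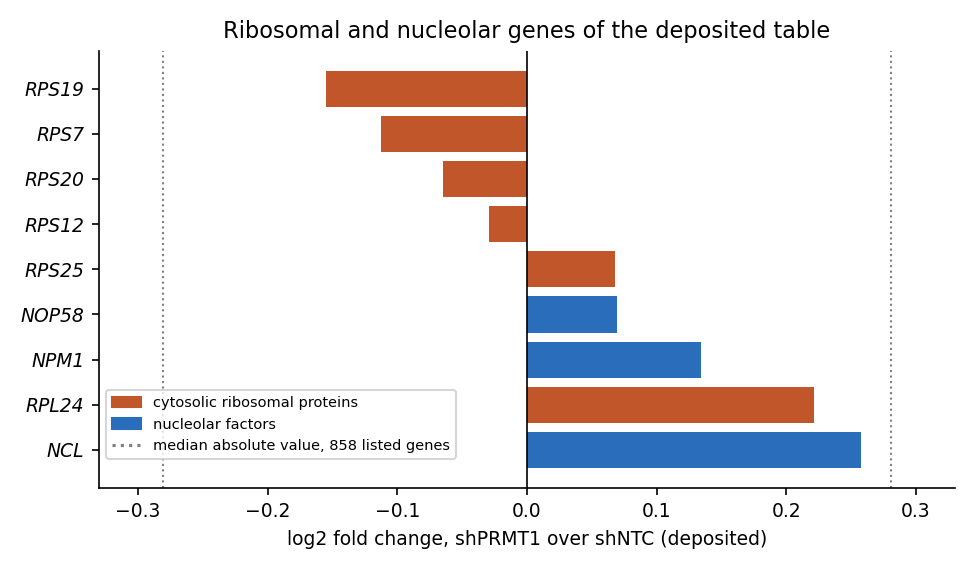
Deposited log2 fold change of shPRMT1 over shNTC (x axis) for each of the 9 genes (1 bar per gene), coloured by group, with dotted lines at plus and minus the median absolute value over the 858 listed genes. The bars run between −0.16 for RPS19 and 0.26 for NCL, all inside the dotted lines; each bar is a single value of the authors' deposited table, so no error bar is drawn.

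Among the proteins of the small subunit, RPS19, which is needed to mature the small subunit's RNA and is the gene most often mutated in Diamond-Blackfan anaemia, stood at a ratio of 0.898 by the authors' deposited table (log2 −0.16, p = 0.0475). Its p was the highest of the 9, nearest to the limit of 0.05 for entering the authors' deposited table. RPS7, another Diamond-Blackfan gene, whose product also binds MDM2, stood at a ratio of 0.925 by the authors' deposited table (log2 −0.11, p = 0.0415). These genes had the largest differences of the 4 that were listed lower.

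RPS20, a protein of the head of the small subunit, stood at a ratio of 0.956 by the authors' deposited table (log2 −0.06, p = 0.0208). RPS12, which also belongs to the small subunit, had a ratio of 0.980 (log2 −0.03, p = 0.0323) in the authors' deposited table. Just 4 entries among the 858 in the authors' deposited table had a smaller absolute log2 fold change than RPS12, so this entry stands for a small ratio with a p under the limit. RPS25, a small-subunit protein used in initiation at viral internal ribosome entry sites, was the exception in direction, with a ratio of 1.05 by the authors' deposited table (log2 0.07, p = 0.0352). It overlaps CCDC84 and TRAPPC4 on the opposite strand in GENCODE 29, and whether the authors counted reads by strand is not given in the sources used here.

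RPL24, which forms a bridge between the subunits, was the large-subunit gene of the set and had the highest ratio of the 6 ribosomal proteins, 1.17 in the authors' deposited table (log2 0.22, p = 0.0452). The 6 ribosomal proteins thus spread over 0.38 log2 units in the authors' deposited table, between −0.16 and 0.22, around a median of −0.05. The 3 nucleolar genes spread over 0.19 units around a median of 0.13 in the authors' deposited table, against a median of −0.12 over all 858 listed genes. The groups overlapped: RPL24 stood above NPM1 and NOP58, and RPS25 was within 0.01 of NOP58 in ratio (1.05 each in the authors' deposited table).

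NCL, the nucleolar RNA-binding protein that takes part in transcription and processing of ribosomal RNA, had the highest ratio of the set, 1.20 in the authors' deposited table (log2 0.26, p = 0.0403). NPM1, the chaperone of the nucleolus' granular layer and a frequently mutated gene in acute myeloid leukaemia, stood at a ratio of 1.10 by the authors' deposited table (log2 0.13, p = 0.0179), the lowest p of the 9. NOP58, a core protein of the box C/D small nucleolar ribonucleoproteins that guide 2′-O-methylation of ribosomal RNA, stood at a ratio of 1.05 by the authors' deposited table (log2 0.07, p = 0.0213). The order of p and the order of ratio did not match in this group: NCL had the largest difference and the highest p in the authors' deposited table.

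**Figure D2:**
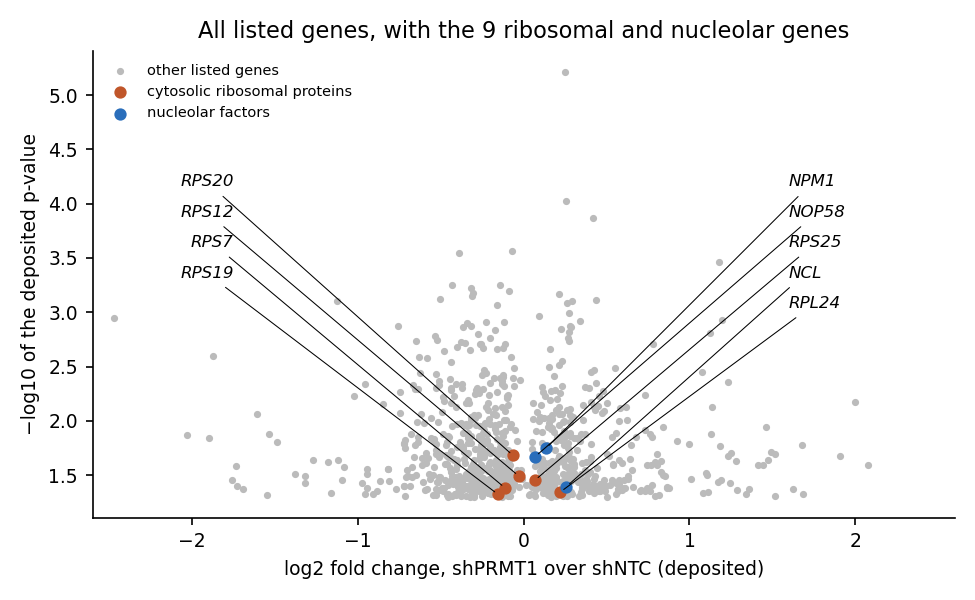
Each point is 1 of the 858 listed genes, with the deposited log2 fold change of shPRMT1 over shNTC on the x axis and −log10 of the deposited p-value on the y axis; the 6 ribosomal and 3 nucleolar genes are coloured and named. The named genes lie in the low central part of the plot, with p between 0.0179 and 0.0475 in the authors' deposited table, and all other listed genes are grey.

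The 9 genes are part of larger families, and most of those families are outside the authors' deposited table. The relation between p, rank and adjusted p implies that 7640 genes were tested, so 858 listed genes are 11.2% of them, with 6.56% listed lower and 4.67% listed higher. Of the 79 standard ribosomal proteins, 8 (10.1%) were listed, and the authors' deposited table has 5 of these lower and 3 higher. This share is near that of all tested genes. The median log2 fold change of the 8 was −0.05 and that of all genes of the authors' deposited table −0.12. Absence from the table means an unadjusted p above the limit or no test at all, which cannot be told apart here, so the shares take every family member as tested.

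By subunit, 5 of 32 small-subunit genes were listed (15.6%), 4 lower and 1 higher, and 3 of 47 large-subunit genes (6.38%), 1 lower and 2 higher, in the authors' deposited table. The other 27 small-subunit and 44 large-subunit genes were not listed, and neither was any of the 10 genes on a list of their paralogs that also holds the ribosome-bound scaffold RACK1. With so few listed genes the difference between subunits was not tested.

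The snoRNP and abundant nucleolar proteins, to which NCL, NPM1 and NOP58 belong, were listed in 4 of 29 cases (13.8%), and the authors' deposited table has 3 of these higher and 1 lower. The fourth was GNL3 (nucleostemin), a nucleolar GTPase, with a ratio of 0.983 and p = 0.00425 in the authors' deposited table. Its log2 fold change of −0.03 places it opposite to the other listed nucleolar proteins, with a lower p and a smaller difference than any of them in the authors' deposited table.

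Factors that build the subunits were listed on both sides. Across the lists for early small-subunit processing (the SSU processome), 60S assembly, 40S maturation with the RNA exosome, and RNA polymerase I, 6 of 130 genes (4.62%) were listed, and the authors' deposited table has 4 of these lower and 2 higher. None of the 44 genes on the SSU processome list was in the authors' deposited table. The same held for the 15 genes on the list of RNA polymerase I and its cofactors. These lists do not hold every factor of ribosome assembly. RBM19 (log2 0.19) and KIAA0020 (log2 0.15) were higher and ABT1 (log2 −0.10) was lower, and they are on none of the lists. SBDS, mutated in Shwachman-Diamond syndrome, and its partner GTPase EFL1 release the anti-association factor eIF6 from the new large subunit, and both were listed lower. SBDS had a ratio of 0.799 (log2 −0.32, p = 0.0498) and EFL1, listed under the older symbol EFTUD1, one of 0.792 (log2 −0.34, p = 0.0159) in the authors' deposited table. The SBDS p was the highest of all 858 genes of the authors' deposited table.

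NIP7, a factor of pre-ribosomal RNA processing, had a ratio of 0.868 (log2 −0.20, p = 0.0408) in the authors' deposited table, and MDN1, the large ATPase that strips factors from large-subunit precursors, one of 1.27 (log2 0.35, p = 0.0357). The endonuclease NOB1, which makes the last cut in the small subunit's RNA, had a ratio of 1.20 (log2 0.27, p = 0.0177) in the authors' deposited table. Its binding partner PNO1 had a ratio of 0.867 (log2 −0.21, p = 0.0171) in the authors' deposited table, so the partners were listed on opposite sides. After adjustment none of the 6 assembly genes from the lists passed 0.05 in the authors' deposited table.

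**Figure D3:**
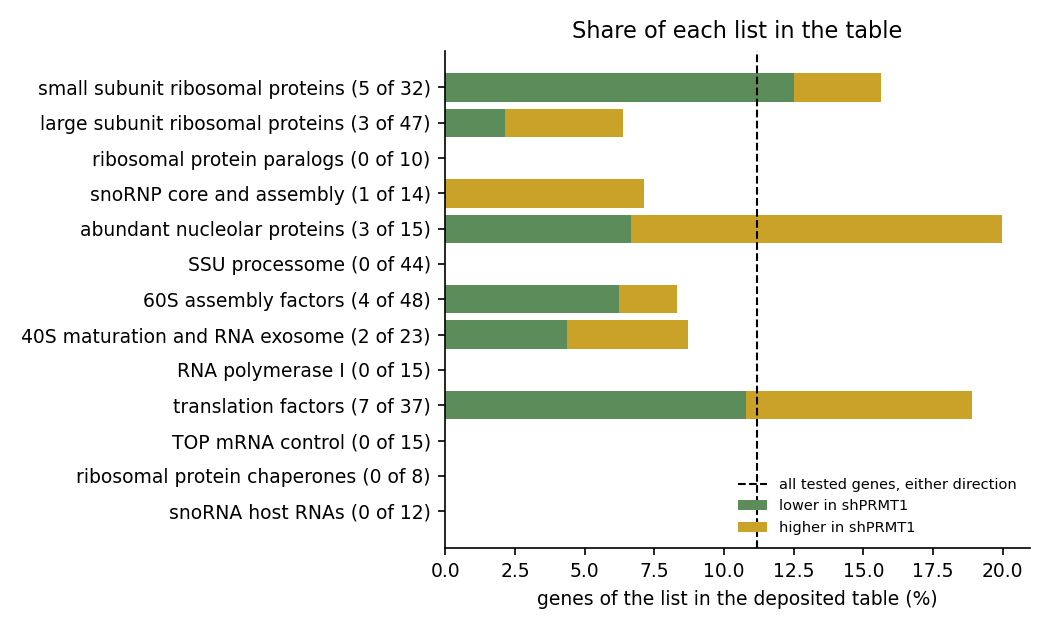
Share of each gene list that is in the authors' deposited table (x axis, %), split into genes listed lower and higher in shPRMT1, with the listed and total number of genes beside each name; the dashed line marks the 11.2% of all tested genes. Small-subunit proteins (15.6%), abundant nucleolar proteins (3 of 15 genes) and translation factors (18.9%) lie above the line on 3 to 7 genes each, and 6 lists have no listed gene.

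The list of translation factors, several of which share the TOP tract with ribosomal proteins, also holds TPT1 and BTF3, which are not translation factors in the strict sense. Of its 37 genes 7 (18.9%) were listed, and the authors' deposited table has 4 of these lower and 3 higher. The list does not hold every translation factor: EIF2D (log2 −0.26) was lower, and EIF4E2 (log2 0.19) and GSPT1 (log2 0.07) were higher. Listed lower from the list were TPT1, a TOP messenger RNA known as translationally controlled tumour protein, at a ratio of 0.842, and BTF3, part of the nascent chain complex at the ribosome, at 0.864 in the authors' deposited table. EIF5A (0.887) and the initiation factor EIF1AX (0.903) were the others from the list that were lower in the authors' deposited table. The elongation factors EEF2 (1.13) and EEF1A1 (1.06, p = 0.00108) and the initiation factor subunit EIF3A (1.05) were listed higher in the authors' deposited table. No gene was found from a list of 15 for the mTOR and LARP1 branch that controls TOP messenger RNAs. Nor was any of 8 dedicated chaperones of ribosomal proteins or of a list of 12 snoRNA host RNAs. The list of 15 does not hold every gene linked to mTOR: LAMTOR1 (log2 −0.67) was lower and TTI1 (log2 0.26) higher. Median log2 fold changes were −0.15 for the 7 genes from the list of translation factors and −0.12 for all genes of the authors' deposited table.

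The ribosomal and nucleolar genes also differ in length, and direction moved with coding length across the authors' deposited table. The coding length of the principal GENCODE 29 transcript was 357 to 582 nt for the 6 ribosomal proteins, with 4 to 6 exons. NPM1 had 882 nt, NOP58 1587 nt and NCL 2130 nt, with 11 to 15 exons. Without the 9 genes, 79.3% of 135 listed genes with under 600 nt were lower in the authors' deposited table, 73.8% of 240 with 600 to under 1200 nt, 58.8% of 233 with 1200 to under 2400 nt and 26.0% of 173 longer ones. Of the 6 ribosomal proteins, all in the shortest class, 4 were lower, while NPM1 (600 to under 1200 nt) and NOP58 and NCL (1200 to under 2400 nt) were higher in classes where most genes were lower. On the list of translation factors all 4 listed genes with under 600 nt were lower and the 3 longer ones higher in the authors' deposited table. Outside that list the initiation factor EIF2D (1752 nt) was lower, and EIF4E2 (735 nt) and GSPT1 (1497 nt) were higher. The part of length in the directions of the 9 genes was not tested.

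**Figure D4:**
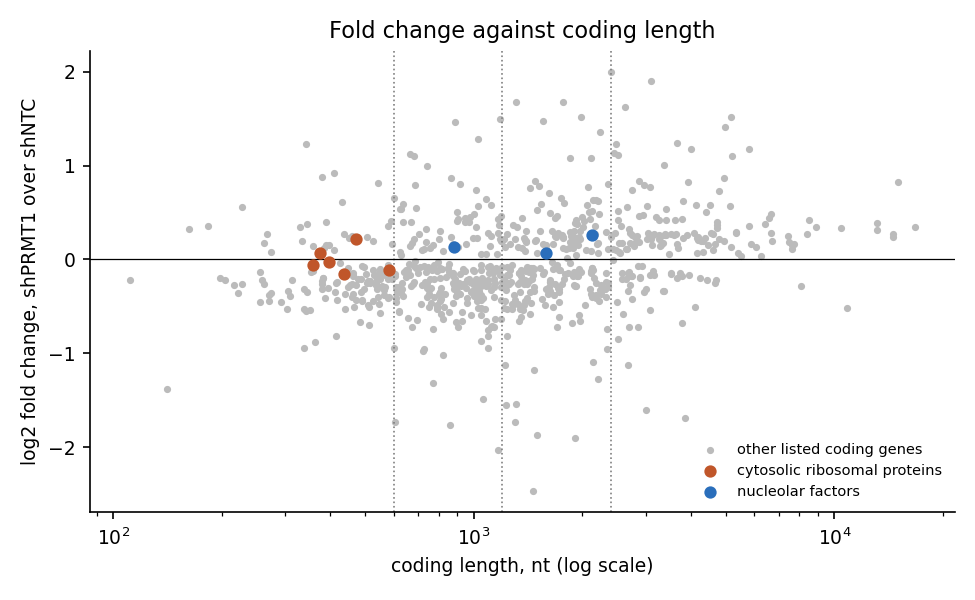
Coding length in nt (x axis, log scale) against the deposited log2 fold change of shPRMT1 over shNTC (y axis) for the 790 listed genes with a coding length; dotted lines mark the class borders at 600, 1200 and 2400 nt. The 6 ribosomal proteins lie left of 600 nt on both sides of 0, the 3 nucleolar genes lie further right and above 0, and the grey points lie mostly below 0 at the left and above 0 at the right.

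Other features could bear on how reads were assigned to these genes. GENCODE 29 names 102 pseudogenes after the 9 genes: 45 after NPM1, 16 after RPS20, 15 each after RPS7 and RPS12, 4 each after RPS19 and RPL24, 2 after NCL, 1 after RPS25 and none after NOP58. Reads of near-identical copies can be shared between them, and the extent of this was not measured here; how the authors assigned such reads is not given in the sources used here. None of the 102 pseudogenes was itself in the authors' deposited table. Small nucleolar RNAs lie inside 4 of the 9 genes on the same strand, 4 in NOP58, 3 in NCL, 3 in RPS12 and 1 in RPS20, and none of these 11 was in the authors' deposited table. The GC content of the principal transcripts was 47.8% to 56.7% for the 6 ribosomal proteins and 41.3% to 47.2% for the 3 nucleolar genes, beside medians of 48.3% for lower and 47.1% for higher genes of the table.

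Mitochondrial ribosomal proteins, which build the separate ribosome of the mitochondrion, gave a comparison within the authors' deposited table. Of these, 9 were listed, 5 lower and 4 higher, with log2 fold changes between −0.44 (MRPL17) and 0.80 (MRPL2) in the authors' deposited table. The size of their family was not counted here, so no share stands beside the 11.2% of all tested genes that were listed. The median absolute log2 fold change in the authors' deposited table was 0.09 for the 6 cytosolic ribosomal proteins and 0.13 for the 3 nucleolar genes, against 0.27 for the 9 mitochondrial ribosomal proteins, a difference that was not tested.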

How the data were processed

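RNA sequencing of 4 samples (2 shPRMT1, 2 shNTC) was analysed from the authors' deposited table. Per the labels, libraries came from a total RNA kit; the same text describes chromatin immunoprecipitation, and the samples were treated as RNA. The submitters' processing notes name HISAT2 2.2.1, Trim Galore 0.6.7, edgeR 3.36.0, StringTie 2.2.1, deepTools and the build hg19, with no role for each. Per the file headers, the authors deposited per gene the fold change as a linear ratio, the log2 of it, a p-value and its q-value; how these were normalized and tested is not given in the sources used here, and no counts of single samples were used, so no test of samples was run and depth is unknown.

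The number of genes tested was recovered as 7640 from runs of equal adjusted p (52 of 53 within 0.01), a step that returned the right number for 50 of 50 simulated tables like that of shPRMT1 and shNTC. Members and the 13 gene lists (320 genes, 319 with a symbol in the reference tables) were chosen with earlier results of these data known. The genes named were PRMT1, all members and the listed genes of the lists, except for some ribosomal protein genes whose values are not reported here and which enter the counts alone; features of mitochondrial ribosomal proteins, pseudogenes, small nucleolar RNAs and the coding length classes were added after the values were seen. GENCODE 29 (GRCh38) gave coding lengths for 790 of 858 genes (92.1%), exons and pseudogenes; RefSeq (GRCh38.p14) gave start sequences for 7 of 9 members. Neither is the authors' build, so their coordinates do not refer to the table. Python 3.11.15, numpy 2.4.6, pandas 2.3.3 and matplotlib 3.10.9 were used. Alternatives were other p thresholds, a minimum fold change, log2 values moved up or down by 0.1, other list matching, coding genes alone and other tract rules.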

Additional observations from a re-analysis of the deposited data

How the results depend on the processing

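No paired analysis was possible because the authors' deposited table holds no values of single samples; leaving out a replicate, another normalization and a filter on low counts were not run for the same reason. Counts of the RGG motif, its RG form and its clustered form were not run, since no protein sequences were used here. Counts are of genes in the authors' deposited table, lower then higher in shPRMT1. For the standard ribosomal proteins, 5 and 3 at an unadjusted p under 0.05 became 0 and 0 at p under 0.01, and 0 and 0 at an adjusted p under 0.05. Where the log2 fold change also had to be 0.1 or more in size, 3 were lower and 2 higher. With every log2 value raised by 0.1, 3 were lower and 5 higher, and with every value lowered by 0.1, 6 were lower and 2 higher. For nucleolar and assembly genes, 5 and 5 became 1 and 0 at p under 0.01, and 0 and 0 at an adjusted p under 0.05. For all genes, 501 and 357 became 113 and 78, and 0 and 1. The thresholds themselves set these counts. The median log2 fold change of the 6 ribosomal proteins, −0.0469, became 0.0531 with the values raised by 0.1 and −0.147 with them lowered. The median of the 3 nucleolar genes, 0.135, became 0.235 and 0.0347. By construction a shift of 0.1 turns the sign of the genes with a smaller log2 fold change, here 4 of the 9: RPS20 to 0.0354 and RPS12 to 0.0708 when raised, RPS25 to −0.0324 and NOP58 to −0.0306 when lowered. The other 5, with RPL24 (0.22) and NCL (0.26) the furthest from 0, kept their sign. The authors' normalization is unknown, and whether the values hold a common offset was not tested. Other tract rules found 5 to 7 of the 7 member genes, against 6.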

Other observations

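Noncoding genes linked to ribosomes were also in the authors' deposited table. The authors' deposited table holds 3 ribosomal protein pseudogenes, of which 1 was lower and 2 were higher in shPRMT1. The higher ones were RPS3AP6 at a ratio of 1.04 (p = 0.00953) and RPS2P5 at 1.09 (p = 0.0448) in the authors' deposited table, and the lower one, which differed more than either, is not named here. RPS3A and RPS2, after which the higher ones are named, were not listed.

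Small nucleolar RNAs, which guide modification of ribosomal and other RNAs, were listed in 5 cases. A copy of SNORD116 (0.614), snoU2_19 (0.644) and SNORA34 (0.660) were lower in the authors' deposited table. SNORA74 (1.22, p = 0.00136) and SNORA55 (1.47) were higher in the authors' deposited table. None of them lies inside the 9 genes. Many snoRNAs have near-identical copies, so these values are uncertain. SNHG11, a snoRNA host RNA that was not on the list of 12 such RNAs, stood at 0.447 (p = 0.0460) in the authors' deposited table and is named after its value was seen.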
